A study of Mus musculus with 36 samples.

Results

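The genes described here make, sense, move and remove cholesterol in the mouse brain after Dicer was deleted from adult neurons. The list names 32 genes: 18 enzymes of synthesis, 6 regulators, 7 genes of transport and storage (among them Soat1, which esterifies cholesterol) and the turnover enzyme Cyp46a1. A gene was taken where the array's annotation gives a probe set, a group of short probes for 1 transcript, to that gene alone, and its probe set with the highest mean in a tissue stood for it. This held for 29 of the 32 genes, among 18194 genes so measured, and all 29 were among the 14555 genes tested in each tissue. Acat2, Soat1 and Nr1h2 have no such probe set and were not analysed here.

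Cholesterol barely crosses from blood into brain, so brain cells make their own, from acetyl units through mevalonate, squalene and lanosterol. When sterols in the endoplasmic reticulum run low, Scap escorts the SREBP transcription factors (genes Srebf1 and Srebf2) to the Golgi, where they are cut and released to switch on the synthesis enzymes. Insig1 and Insig2 hold Scap back when sterols are plentiful. Surplus sterol is exported by Abca1 and Abcg1 onto apolipoprotein E, genes that liver X receptors switch on, and neurons turn cholesterol into 24S-hydroxycholesterol with Cyp46a1, a form that can leave the brain.

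The mice were Cre+;Dicer lox/lox on a C57BL/6J background in every group. In the cKO groups, mice aged 8 weeks received 10 mg of tamoxifen in all over 5 days, which activates a Cre recombinase driven by the Camk2a promoter and removes an exon of Dicer in Camk2a-expressing neurons only; control mice, of the same genotype and age, received the oil vehicle. Cortex, hypothalamus and hippocampus were taken 4 weeks later, while cKO mice gained weight, or 8 weeks later, while they lost it again. Each of the 12 groups held 3 mice, hence 36 arrays, but these came from 12 cKO and 13 control mice: 11 mice gave both a cortex and a hypothalamus array, so that those tissues are not independent of each other, and the arrays labelled hippocampus came from other mice. The values are log2 intensities normalized within a tissue, so levels were compared only within a tissue and a probe set. Cells that do not express Camk2a, glia among them, keep Dicer in this model, and the cKO animals alone had received tamoxifen, so the deletion and the drug cannot be told apart.

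The hypothalamus arrays carried their region's markers, with Pmch at a median percentile of 99.9 among genes, and the cortex arrays theirs, with the excitatory vesicular transporter Slc17a7 at a median percentile of 88.1. The arrays labelled hippocampus did not. Slc17a7 had a median level of 4.03 there, at percentile 16.2, and Neurod6, a marker of pyramidal neurons, a median level of 3.10, whereas Slc17a6, the transporter of subcortical excitatory neurons, stood at percentile 97.2. Only 1 of those 12 arrays, cKO replicate 1 at 8 weeks, had Slc17a7 and Neurod6 above the 50th percentile of genes, with levels of 7.56 and 9.05. These 12 are therefore called the arrays labelled hippocampus, and results resting on that 1 array are given with and without it. The position of the 2 Dicer1 probe sets relative to the deleted exon was not determined here, so their differences, between -0.09 and 0.45 over 12 comparisons, check no label.

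At 8 weeks the hypothalamus of cKO mice had lower mean levels of all 17 measured synthesis enzymes and of Insig1, Srebf2 and the sterol carrier Stard4, and higher mean levels of the export genes Abca1, Abcg1 and Apoe. No member was called at the false discovery rate (FDR) of 15% used throughout, nor was any of the 14555 genes tested (0%), although 1073 of them had an unadjusted p under 0.05 in limma and 853 in an unmoderated test of each gene by itself. Of the 29 members, 13 were lower at an unadjusted p under 0.05, against 2.84% of all genes, and 3 were higher, against 4.53% of all genes. Under other processing the count of 13 ranged from 0, in an unmoderated test of each gene by itself, to 18. It ranged from 4 to 19 with each array left out. The mean was lower for 23 members, against 55.3% of all genes. The median difference over the members, cKO minus control, was -0.23 on the log2 scale, beside -0.01 over all genes tested.

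**Figure D1:**
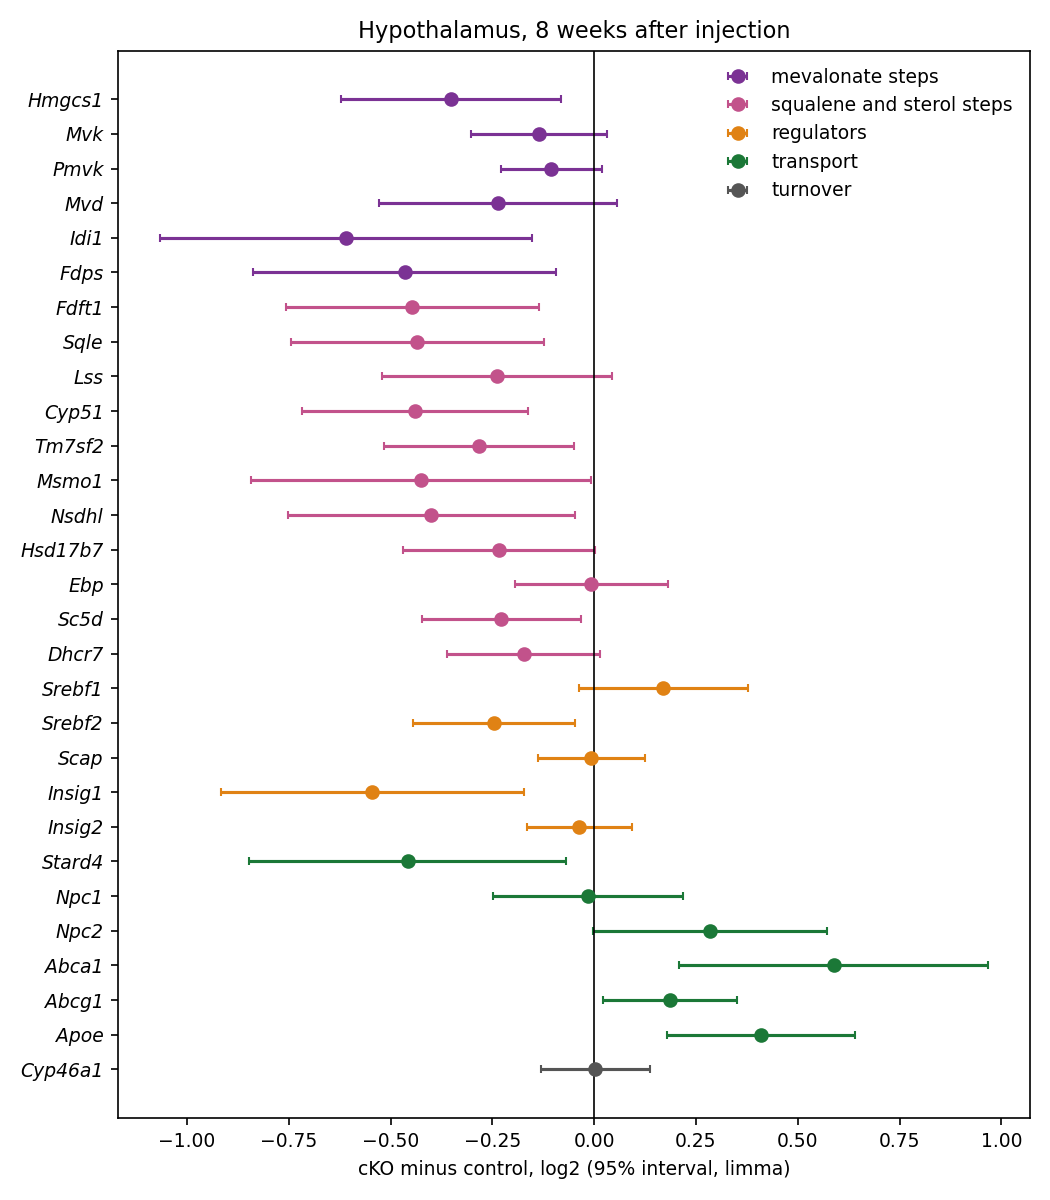
Difference between cKO and control mice in the hypothalamus 8 weeks after injection (x axis, log2, with the 95% interval from limma) for the 29 members (y axis), coloured by role. All 17 synthesis enzymes lie left of 0, down to -0.61 for Idi1, while Abca1, at 0.59, and Apoe, at 0.41, lie to the right.

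The regulatory stretch of 4 of these genes is shown because they span the pathway, from its first steps to its brake, and had lower means together. Each sequence, from RefSeq on GRCm38.p6, runs 5′ to 3′ over 250 bases before and 50 after the gene's start, and capitals mark the letters TCACNCCAC (a sterol response element, the site bound by SREBPs) and CCAAT (the site of their partner NF-Y), read on either strand, so that a site on the other strand appears as its reverse complement.
Hmgcs1 (chr13:119690101-119690400, plus strand): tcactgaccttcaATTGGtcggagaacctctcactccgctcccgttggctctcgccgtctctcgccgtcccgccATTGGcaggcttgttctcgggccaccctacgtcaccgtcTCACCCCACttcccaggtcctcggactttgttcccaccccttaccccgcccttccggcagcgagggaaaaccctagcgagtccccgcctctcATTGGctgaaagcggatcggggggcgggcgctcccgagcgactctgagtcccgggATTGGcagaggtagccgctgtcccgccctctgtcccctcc
Idi1 (chr13:8885356-8885655, plus strand): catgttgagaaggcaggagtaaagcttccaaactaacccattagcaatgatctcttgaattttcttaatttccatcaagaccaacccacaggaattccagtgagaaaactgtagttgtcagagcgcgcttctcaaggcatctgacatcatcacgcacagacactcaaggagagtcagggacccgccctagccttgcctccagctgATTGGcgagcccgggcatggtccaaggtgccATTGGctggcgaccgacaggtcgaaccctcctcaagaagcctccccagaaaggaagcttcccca
Cyp51 (chr5:4104648-4104947, minus strand): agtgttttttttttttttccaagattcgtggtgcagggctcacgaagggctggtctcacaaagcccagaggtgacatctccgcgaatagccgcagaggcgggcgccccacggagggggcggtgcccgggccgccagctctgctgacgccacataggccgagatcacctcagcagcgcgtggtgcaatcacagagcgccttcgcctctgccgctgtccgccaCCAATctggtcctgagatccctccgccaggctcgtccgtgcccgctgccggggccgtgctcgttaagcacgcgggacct
Insig1 (chr5:28071162-28071461, plus strand): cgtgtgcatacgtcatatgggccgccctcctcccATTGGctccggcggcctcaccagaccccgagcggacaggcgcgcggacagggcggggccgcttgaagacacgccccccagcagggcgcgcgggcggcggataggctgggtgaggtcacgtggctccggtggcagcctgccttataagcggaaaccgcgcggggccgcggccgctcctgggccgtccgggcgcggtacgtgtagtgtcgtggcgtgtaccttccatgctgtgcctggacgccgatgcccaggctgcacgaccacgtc
The table holds 36 such promoters, of 26 of the 32 members. TCACNCCAC occurred in 1 of them, that of Hmgcs1, and in 1.24% of all 32851 promoters. CCAAT occurred in 22 of the 36, or 61.1%, and in 37.4% of all promoters. A match describes letters in this window and shows no binding. Only these exact strings were sought, so sites that differ by a letter were not counted. A missing match therefore does not show that a promoter lacks a site.

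Among the enzymes of the mevalonate steps, Hmgcs1, which condenses the first carbon units, had levels of 11.31, 11.47 and 11.90 in cKO mice and 11.95, 11.88 and 11.91 in controls. Idi1, which isomerizes the isoprene building block, had 8.51, 8.71 and 9.52 in cKO mice and 9.55, 9.35 and 9.67 in controls. Fdps, which joins these blocks into farnesyl diphosphate, had 8.94, 9.23 and 9.79 in cKO mice and 9.92, 9.64 and 9.80 in controls. In each, replicates 1 and 2 of the cKO mice lay below every control and replicate 3 among the controls. The differences were -0.35 ± 0.12 for Hmgcs1, -0.61 ± 0.21 for Idi1 and -0.47 ± 0.17 for Fdps (SE, n = 3 each, adjusted p = 0.468, 0.448 and 0.494 in limma). The SE here and below rests on limma's estimate of a gene's spread over all groups fitted, not on the mice compared alone. Pmvk, the kinase that adds the second phosphate to mevalonate, had 9.17, 9.20 and 9.30 in cKO mice and 9.35, 9.31 and 9.33 in controls, groups that did not overlap, with a difference of -0.11. Mvk, the first mevalonate kinase, and Mvd, the decarboxylase, had differences of -0.14 and -0.24.

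The steps from squalene to cholesterol showed the same spread. Fdft1, squalene synthase, had levels of 10.54, 10.61 and 11.22 in cKO mice and 11.17, 11.26 and 11.28 in controls. Sqle, the epoxidase that controls flux after squalene, had 9.51, 9.74 and 10.23 in cKO mice and 10.33, 10.18 and 10.28 in controls. Cyp51, the lanosterol demethylase, had 8.48, 8.49 and 8.96 in cKO mice and 9.07, 8.98 and 9.20 in controls. Of these 3 genes, only Cyp51 had cKO arrays all below the controls. Its difference was -0.44 ± 0.13, or 1.36-fold lower in cKO mice (adjusted p = 0.377), beside -0.45 ± 0.14 for Fdft1 (adjusted p = 0.412) and -0.43 ± 0.14 for Sqle (adjusted p = 0.415; SE, n = 3 each). The enzymes that follow Cyp51, Msmo1 and Nsdhl in the removal of methyl groups and Tm7sf2 in the reduction of a double bond, differed by -0.43, -0.40 and -0.28. Sc5d and Dhcr7, which shape the last double bonds, differed by -0.23 and -0.17, Lss, the cyclase that makes lanosterol, by -0.24, and Hsd17b7, a sterol ketone reductase, by -0.23. The isomerase Ebp had the smallest difference, -0.01, with a 95% interval from -0.20 to 0.18.

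Of the 5 regulators measured, Insig1 and Srebf2 were the ones with an unadjusted p under 0.05. Insig1 had levels of 8.68, 8.89 and 9.55 in cKO mice and 9.56, 9.58 and 9.60 in controls. All cKO arrays lay below all controls, replicate 3 by little. The difference was -0.55 ± 0.17, or 1.46-fold lower in cKO mice (adjusted p = 0.398). Srebf2, the SREBP gene most tied to cholesterol synthesis, had 8.33, 8.25 and 8.66 in cKO mice and 8.70, 8.59 and 8.68 in controls, a difference of -0.25 ± 0.09 (adjusted p = 0.5004). Srebf1, the SREBP gene more tied to fatty acid synthesis and itself a target of liver X receptors, had 10.25, 10.05 and 9.88 in cKO mice and 9.87, 9.92 and 9.88 in controls, a difference of 0.17 ± 0.10 (adjusted p = 0.761). For both SREBP genes, cKO replicate 3 lay within the range of the controls. Scap had 10.08, 9.96 and 9.99 in cKO mice and 10.02, 10.01 and 10.02 in controls. Insig2 had 9.42, 9.45 and 9.50 in cKO mice and 9.49, 9.41 and 9.58 in controls. The groups of Scap and Insig2 overlapped, and the 95% intervals of their differences ran from -0.14 to 0.12 and from -0.16 to 0.09.

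**Figure D2:**
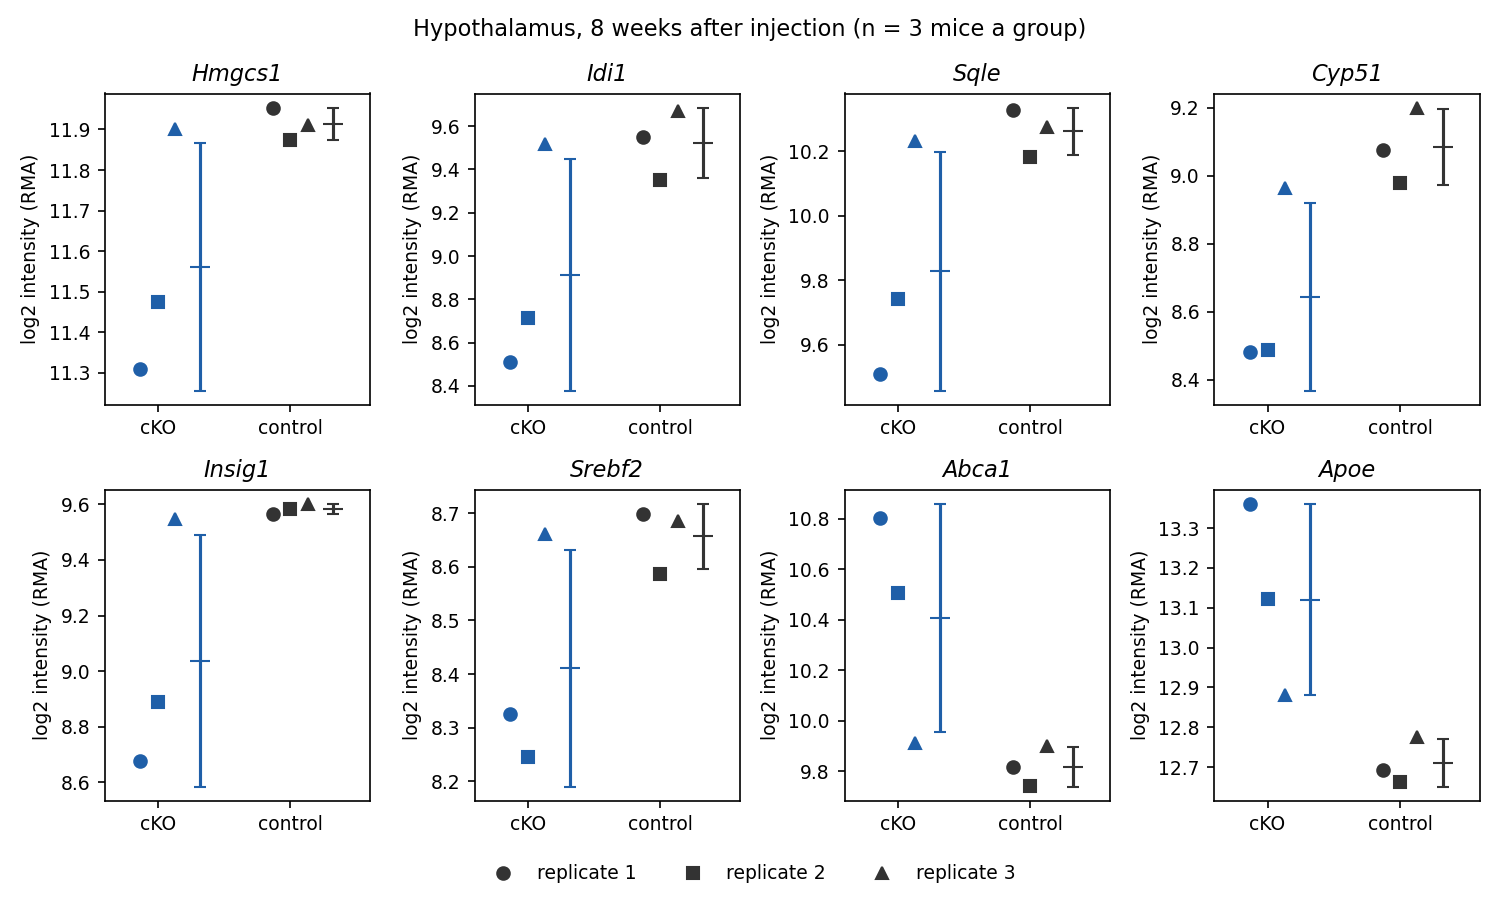
Log2 intensity (y axes, each with its own range that does not start at 0) of 8 members in the hypothalamus at 8 weeks, for 3 cKO and 3 control mice; each symbol is a replicate and the bars are the mean and SD. Replicate 3 of the cKO mice (triangle) lies nearest to the controls for each gene, as for Insig1, at 9.55 beside control levels of 9.56 to 9.60.

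Genes that move sterol had differences of both signs. Abca1, the pump that loads cholesterol onto apolipoproteins, had levels of 10.80, 10.51 and 9.91 in cKO mice and 9.81, 9.74 and 9.90 in controls. Apoe, the main lipid carrier of the brain, had 13.36, 13.12 and 12.88 in cKO mice and 12.69, 12.66 and 12.78 in controls. Neither gene's groups overlapped, and replicate 3 was again the cKO array closest to the controls. The differences were 0.59 ± 0.17 for Abca1, a 1.504-fold higher level (adjusted p = 0.391), and 0.41 ± 0.11 for Apoe, 1.33-fold higher (adjusted p = 0.374; SE, n = 3 each). Abcg1, the partner pump, had 10.12, 10.17 and 9.86 in cKO mice and 9.89, 9.88 and 9.82 in controls, a difference of 0.19 ± 0.08 (adjusted p = 0.593).

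Of the other carriers, Npc2, which hands cholesterol on inside lysosomes, had levels of 12.21, 11.89 and 11.54 in cKO mice and 11.62, 11.55 and 11.61 in controls, a difference of 0.28 ± 0.13 (adjusted p = 0.679). Its membrane partner Npc1 differed by -0.02. Stard4, a cytosolic sterol carrier whose gene SREBPs activate, had 7.16, 7.30 and 7.93 in cKO mice and 8.14, 7.75 and 7.88 in controls, a difference of -0.46 ± 0.18 (adjusted p = 0.537). Stard4 thus lay with the enzymes, with replicate 3 within the range of the controls. Cyp46a1, the neuronal hydroxylase, had 10.13, 10.09 and 10.09 in cKO mice and 10.06, 10.20 and 10.04 in controls. Its groups overlapped, and the 95% interval of its difference ran from -0.13 to 0.14. Over all members, the groups did not overlap for 3 that were lower in cKO mice, against 7.94% of all genes, and for 2 that were higher, against 5.26%.

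Within the cKO group the synthesis enzymes and 4 transport genes varied from mouse to mouse in 1 pattern. Replicate 3 had the highest cKO level of all 17 synthesis enzymes and the lowest of Abca1, Abcg1, Apoe and Npc2. Replicates 1 and 2 each lay below every control for 16 of the 17 enzymes, and replicate 3 for 2. Such positions were counted for the sterol lists only, so no share over all genes stands beside them. The median over the 17 enzymes of the difference from the control mean in the cKO mice was -0.46, -0.44 and -0.01, and 0.07, -0.08 and 0.01 among the controls. The SD of an enzyme's levels was between 0.07 and 0.53 among cKO mice and between 0.02 and 0.23 among controls, with a median ratio of 3.07.

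The calls turned on this mouse. When the fit left out cKO replicate 3, 17 of the 29 members passed the FDR of 15%, against 3.96% of all genes, namely 13 that were lower, 10 of them synthesis enzymes, and 4 that were higher. In that fit Insig1 differed by -0.80, Idi1 by -0.91, Fdft1 by -0.66, Abca1 by 0.84 and Apoe by 0.53, with adjusted p = 4.1e-04, 0.00138, 3.3e-04, 9.0e-04 and 0.00747 in limma. That fit kept 2 cKO mice, and the mouse left out lay nearest the controls in these same genes. Its omission widens the differences and narrows the spread by that choice alone. These calls and p-values therefore show how the result depends on 1 mouse and lend it no support. With array weights, which give less weight to arrays that lie far from their group, 18 members were called, against 767 of all 14555 genes. Without cKO replicate 1, or without cKO replicate 2, the number of members lower at an unadjusted p under 0.05 was 4 in place of 13, and without control replicate 1 it was 6. The low enzyme levels were thus those of 2 of the 3 cKO mice.

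Markers of microglia ranked the cKO mice as the enzymes did. All 13 tested markers of the list had higher means in cKO mice, with a median difference of 1.35. At an unadjusted p under 0.05, 12 were higher, against 4.53% of all genes, and 0 were called. Only 2 of these markers had groups that did not overlap, against 5.26% of all genes. The median difference from the control mean stood at 2.24, 1.70 and 0.10 in cKO mice and at 0.15, -0.14 and 0.00 in controls, and their summed linear intensity was between 9749 and 35446 in cKO mice and between 7890 and 9660 in controls. C1qa, a complement gene of microglia, had levels of 12.49, 11.83 and 10.15 in cKO mice and 9.99, 9.72 and 9.82 in controls. P2ry12, another of the microglia markers, had the smallest difference, 0.16, with groups that overlapped. Gfap, the filament of reactive astrocytes, had 10.99, 10.27 and 9.68 in cKO mice and 9.22, 8.96 and 9.43 in controls. All 10 astrocyte markers had higher means in cKO mice, by a median of 0.09. Only 1 of them had groups that did not overlap, against 5.26% of all genes. At an unadjusted p under 0.05, 2 were higher, against 4.53% of all genes. The median per mouse stood at 0.12, 0.10 and 0.06 in cKO mice and at -0.02, -0.03 and 0.01 in controls. The summed intensity lay between 34672 and 38389 in cKO mice and between 33541 and 34514 in controls. The groups did not overlap in this median or this sum. Aqp4, the water channel of astrocyte endfeet, had levels of 11.21, 10.73 and 10.37 in cKO mice and 10.38, 9.87 and 10.48 in controls, which overlapped.

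Oligodendrocytes, the chief cholesterol makers of the brain, showed no such split between mice. Of 11 markers, 10 had lower means in cKO mice, against 55.3% of all genes, with a median difference of -0.11. The median per mouse stood at 0.01, -0.07 and -0.18 in cKO mice and at 0.14, -0.23 and 0.11 in controls, which overlapped. Markers of the leptomeninges stood apart in cKO replicate 3, at 1.23 beside -0.65 and -0.85 in the other cKO mice and -0.02, -0.67 and 0.67 in the controls. The actin 3′ minus 5′ difference, a measure of RNA quality, was 1.18, 1.24 and 1.20 in cKO mice and 1.32, 1.59 and 1.46 in controls, groups that did not overlap (exact permutation p = 0.1, two-sided, the smallest that 3 against 3 allows). The same difference for Gapdh, at 0.023, 0.027 and -0.0012 in cKO mice and 0.056, 0.237 and 0.105 in controls, did not overlap either (exact permutation p = 0.1).

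The 6 hypothalamus markers all had lower means in cKO mice, and their summed intensity lay between 22739 and 24932 in cKO mice and between 25147 and 29460 in controls, groups that did not overlap. Per mouse their median stood at -0.22, -0.20 and -0.24 in cKO mice and at -0.10, 0.05 and 0.05 in controls. The 4 markers of ependyma, the lining of the ventricles, all had higher means, with medians of 0.98, 0.70 and 0.38 in cKO mice and 0.79, -1.03 and 0.25 in controls, which overlapped, as did their summed intensities of 1093 to 1708 in cKO mice and 355 to 1463 in controls. All 8 neuron markers had lower means, by a median of -0.05. The part of these measures in the sterol result was not tested, and in bulk tissue more cells of a type and more RNA per cell cannot be told apart.

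**Figure D3:**
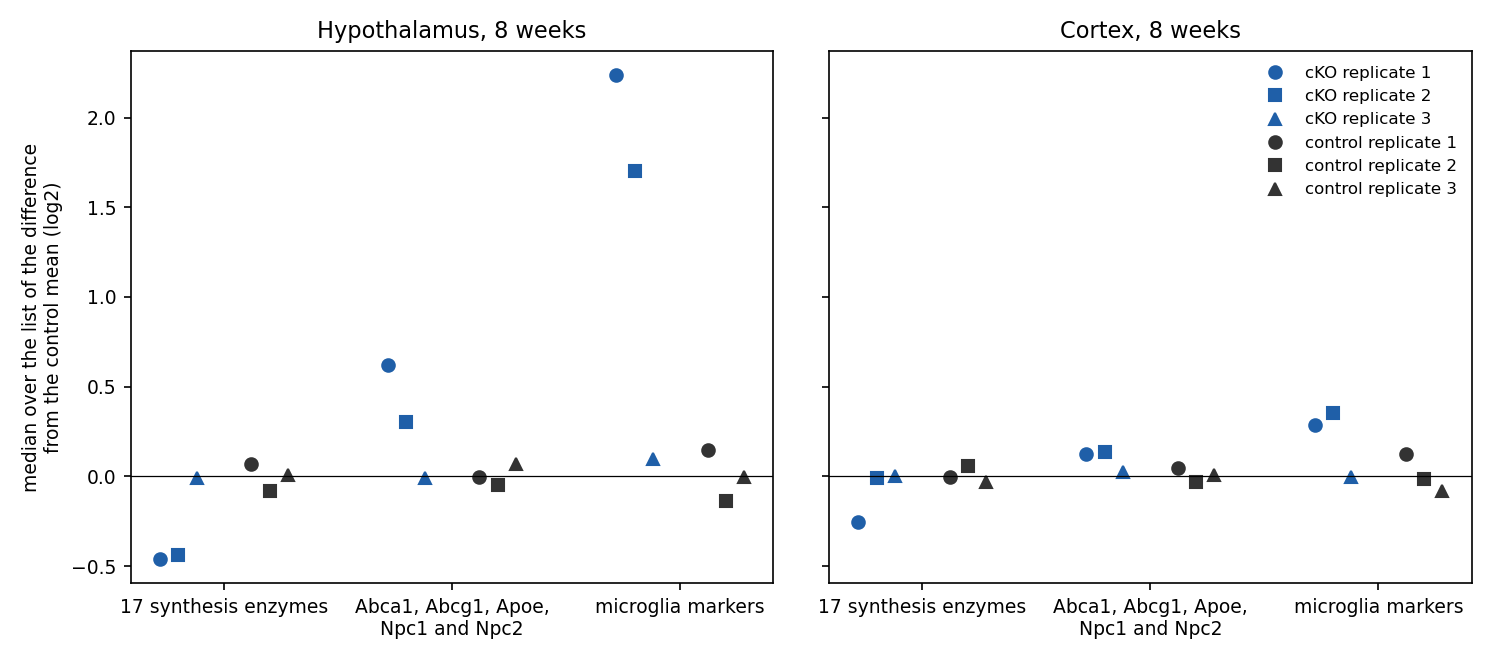
Median over a list of the log2 difference from the control mean (y axis) for each cKO mouse (blue) and control mouse (black) at 8 weeks, in hypothalamus (left) and cortex (right) of the same mice. In the hypothalamus, cKO replicates 1 and 2 lie at -0.46 and -0.44 for the synthesis enzymes and at 2.24 and 1.70 for microglia markers, and replicate 3 lies at -0.01 and 0.10.

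Other genes of sterol handling were counted from a list of 34 that are not members. Of 26 tested, 9 had lower and 17 higher means in the hypothalamus of cKO mice at 8 weeks, 0 were called in limma, and at an unadjusted p under 0.05 there were 0 lower and 3 higher. These 3 were Cyp7b1, an oxysterol hydroxylase (0.32 ± 0.09), Mylip, the liver X receptor target that degrades lipoprotein receptors (0.29 ± 0.11), and Clu, a second brain apolipoprotein (0.23 ± 0.07; SE, n = 3 each).

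In the hypothalamus at 4 weeks the members lay close to the controls, with differences between -0.13 and 0.12, and 0 of 29 were called, as for all genes (0%), none with an unadjusted p under 0.05. The lowest p belonged to Cyp46a1, which had levels of 10.24, 10.14 and 10.14 in cKO mice and 10.15, 10.00 and 10.10 in controls. Next were Scap, with 10.03, 10.05 and 10.10 in cKO mice and 10.08, 9.88 and 10.01 in controls, and Lss, with 8.69, 8.29 and 8.36 in cKO mice and 8.72, 8.57 and 8.41 in controls. The groups overlapped for all 3 genes. The change of the difference between 4 and 8 weeks was called for 0 members (smallest adjusted p = 0.999) and had an unadjusted p under 0.05 for 5, against 4.75% of all genes: -0.66 ± 0.24 for Insig1, -0.46 ± 0.20 for Fdft1, -0.30 ± 0.13 for Srebf2, 0.59 for Abca1 and 0.39 for Apoe. Without the 8-week cKO replicate 3, 12 members were called in this test, and the calls over all genes were not counted in that fit. Here, too, the omitted cKO mouse was the one with the highest levels of the synthesis enzymes, so these calls lend no support.

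The same 6 mice gave the cortex arrays at 8 weeks, where 0 members were called (0% of all genes). Apoe had the lowest p, with levels of 12.15, 12.29 and 11.73 in cKO mice and 11.76, 11.65 and 11.72 in controls, so that replicates 1 and 2 were again above every control and replicate 3 was not; the difference was 0.35 ± 0.15 (adjusted p = 0.939). Sqle had 8.80, 9.01 and 9.10 in cKO mice and 9.07, 9.21 and 9.18 in controls, a difference of -0.19, and Npc1 7.05, 7.03 and 6.86 in cKO mice and 6.93, 6.73 and 6.63 in controls, a difference of 0.22. Both overlapped. Replicate 1 lay below every control for all 17 synthesis enzymes, replicate 2 for 6 and above every control for 7. In the cortex, enzyme levels below all controls throughout were thus those of 1 mouse. These positions, too, were not counted over all genes. For the enzymes the median difference from the control mean stood at -0.25, -0.01 and 0.00 in cKO mice and at -0.01, 0.06 and -0.03 in controls. For the microglia markers it stood at 0.29, 0.35 and 0.00 in cKO mice and at 0.13, -0.01 and -0.08 in controls.

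The difference in the hypothalamus was also set against that in the other tissues at 8 weeks. Against the cortex, with mouse as a block, 0 members were called, and 3 had an unadjusted p under 0.05, against 6.54% of all genes: Abca1, whose difference exceeded that in the cortex by 0.55 ± 0.20, Cyp51 (-0.40 ± 0.16) and Hsd17b7 (-0.28 ± 0.13). Against the arrays labelled hippocampus, from other mice, 0 were called (smallest adjusted p = 0.363), and 16 had an unadjusted p under 0.05, against 8.46% of all genes, 12 of them more negative in the hypothalamus. Without the labelled-hippocampus array that had hippocampal markers, 14 members had an unadjusted p under 0.05, against 9.03% of all genes. Of these 14, 10 were more negative in the hypothalamus. Without the hypothalamic cKO replicate 3 the called members were 4 against the cortex and 16 against the arrays labelled hippocampus. That array was the cKO one with the highest levels of the synthesis enzymes, so these calls lend no support. The calls over all genes were not counted in those fits.

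At 4 weeks, when the cortex as a whole had many changes, the counts of the sterol genes lay near or below those of all genes. In the cortex 2 of 29 members were called, against 8.89% of all genes, and 6 had cKO arrays all above the controls, against 17.8% of all genes. The members' median difference of 0.11 lay beside 0.12 over all genes. Srebf1 had levels of 8.24, 8.28 and 8.49 in cKO mice and 8.04, 7.97 and 8.14 in controls, and rose by 0.29 ± 0.09 (adjusted p = 0.136). Dhcr7, the last reductase of the pathway, had 7.89, 7.95 and 7.84 in cKO mice and 7.72, 7.44 and 7.62 in controls, and rose by 0.30 ± 0.10 (adjusted p = 0.136). Both calls were lost once each array was centred on its median, which takes out the shift of all genes (adjusted p = 0.430 for Dhcr7 and 0.476 for Srebf1), with a replicate block, and when the fit left out 4-week cKO replicate 1 or 2, 4-week control replicate 1 or 2, 8-week cKO replicate 3 or any 8-week control array. Without 4-week control replicate 3, 12 members were called, against 6327 of all 14555 genes.

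Stard4 and several synthesis enzymes in the cortex depended on the probe set. The Stard4 probe set with the highest mean had levels of 6.96, 7.17 and 6.89 in cKO mice and 6.85, 6.80 and 7.06 in controls at 4 weeks, a difference of 0.11, whereas that of the highest variance differed by -0.76 and the remaining one by 0.05. At 8 weeks the first had 6.31, 6.80 and 6.92 in cKO mice and 6.78, 6.99 and 6.95 in controls. At 4 weeks probe sets not chosen differed by -0.91 for Idi1, -0.58 for Lss, -0.87 and -0.67 for Hmgcs1 and -0.41 for Sc5d, beside 0.05, 0.14, -0.02 and 0.02 for the chosen ones in the same order, and the groups of the Lss, Sc5d and second Hmgcs1 probe sets lay apart. At 8 weeks 2 Hmgcs1 probe sets not chosen had lower levels in cKO mice with no overlap, with differences of -0.51 and -0.48. A Stard4 probe set not chosen was lower with no overlap too, by -0.40. Probe sets not chosen were higher with no overlap for Lss (0.30 and 0.29) and Insig2 (0.25), so they pointed both ways. The direction of Stard4, Idi1, Lss, Hmgcs1 and Sc5d in the cortex is therefore not settled. At 4 weeks that of Insig2 and Mvk is not settled either. Their chosen probe sets had cKO arrays all above the controls, with differences of 0.22 and 0.20. Other probe sets differed by -0.12 and -0.31 for Insig2 and by -0.07 for Mvk. In the hypothalamus at 8 weeks the 3 Stard4 probe sets differed by -0.46, -0.36 and -0.51, and of the 33 probe sets not chosen, from 18 members, 22 had lower means in cKO mice. The change in the cortex between the times was called for 0 members and had an unadjusted p under 0.05 for Dhcr7 and Sqle (-0.43 and -0.30), or 2 of 29 against 9.82% of all genes.

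On the arrays labelled hippocampus 0 members were called at 4 weeks and 0 at 8 weeks (0% of all genes at each). At 4 weeks Stard4 had levels of 7.57, 7.40 and 7.11 in cKO mice and 7.72, 7.77 and 7.94 in controls, groups that did not overlap, with a difference of -0.45 ± 0.11 (adjusted p = 0.998), but its other probe sets differed by -0.13 and -0.03. Pmvk differed by 0.12, with 8.79, 8.88 and 8.88 in cKO mice and 8.77, 8.65 and 8.79 in controls. Npc2 differed by -0.14, with 10.85, 11.12 and 11.03 in cKO mice and 11.09, 11.27 and 11.04 in controls. The groups of Npc2 overlapped and those of Pmvk nearly touched.

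At 8 weeks, the 3 members with the lowest p on the arrays labelled hippocampus had differences opposite in sign to those in the hypothalamus. Hmgcs1 had levels of 11.20, 11.40 and 11.24 in cKO mice and 11.06, 11.13 and 10.91 in controls, a difference of 0.24 (0.28 without cKO replicate 1). Sqle had 9.48, 9.57 and 9.36 in cKO mice and 9.27, 9.35 and 9.18 in controls, a difference of 0.20 (0.20 without cKO replicate 1). Srebf2 had 8.50, 8.53 and 8.62 in cKO mice and 8.39, 8.32 and 8.45 in controls, a difference of 0.16 (0.19 without cKO replicate 1). The groups did not overlap for these 3, and the adjusted p was 0.795 for each. In all, 4 members had cKO arrays above every control, against 5.19% of all genes, and 2 below, against 8.59%. Between the times, the difference changed at an unadjusted p under 0.05 for 4 members, against 5.67% of all genes, with 0 called.

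**Figure D4:**
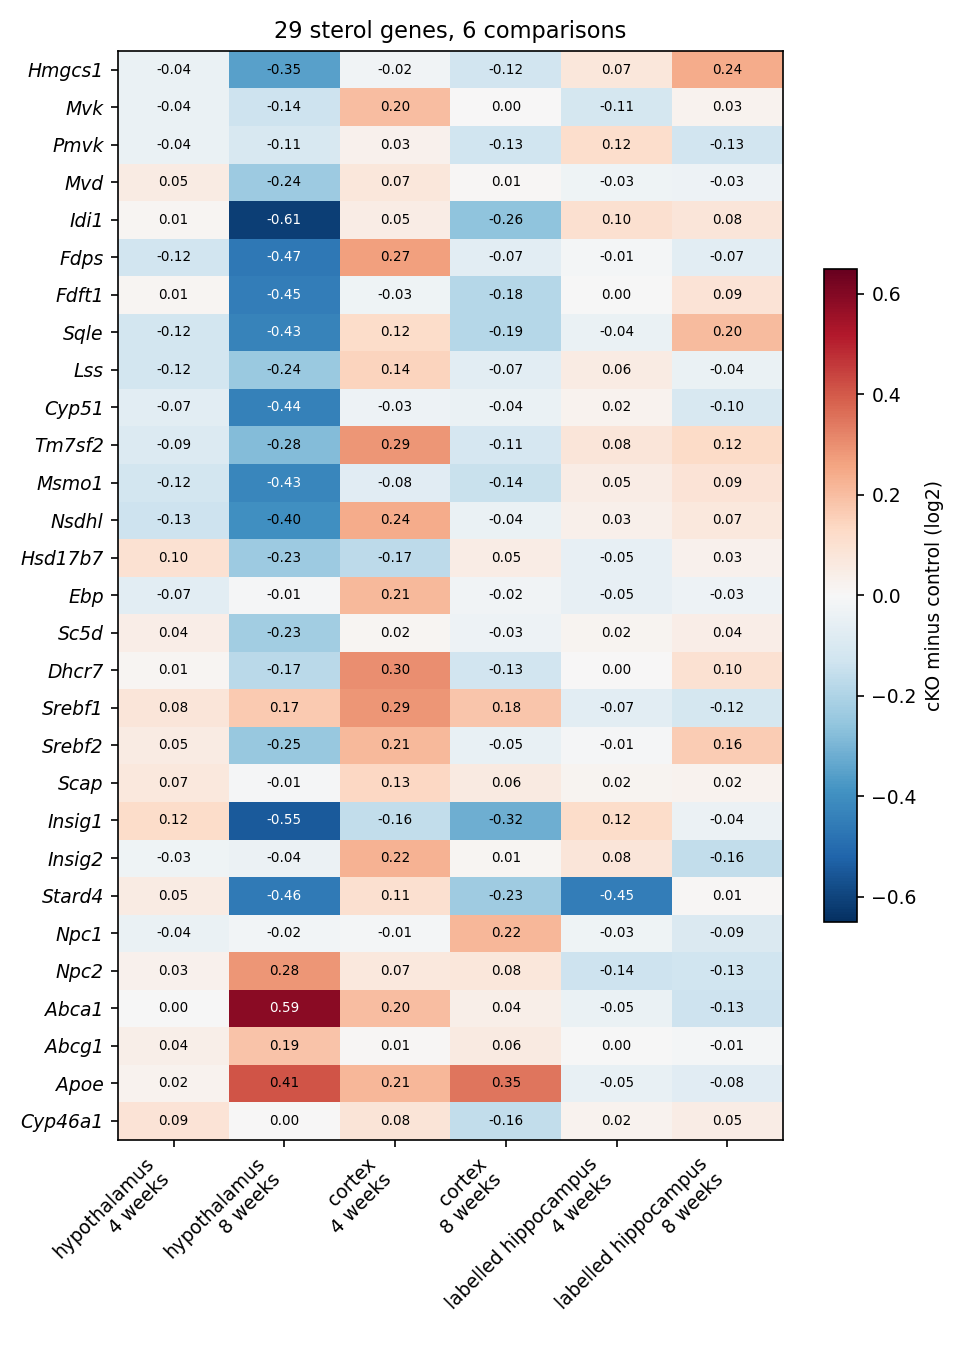
Difference between cKO and control mice (colour and number, log2) for the 29 members (rows) in the hypothalamus, the cortex and the arrays labelled hippocampus at 4 and 8 weeks (columns). The hypothalamus at 8 weeks is the column with 23 negative values, from -0.61 for Idi1 to 0.59 for Abca1, while the hypothalamus at 4 weeks stays between -0.13 and 0.12.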

How the data were processed

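RNA of cortex, hypothalamus and hippocampus was hybridized to Affymetrix mouse arrays. The deposited values are log2 intensities that the authors made with RMA, run for each tissue, and they were used unchanged. The version of RMA: not given in the sources used here. The arrays hold 45101 probe sets, of which 34958 name 1 gene, 932 several and 9147 none in the platform annotation, besides 64 controls. Genes were kept whose third-highest of 12 values in the tissue lay in the upper 80%, since detection calls were not used here. limma 3.58.1 in R 4.3.3 fitted the 4 groups of a tissue, and p-values were adjusted by Benjamini and Hochberg's method over all 14555 genes and called at an FDR of 15%, as in the methods. The difference between hypothalamus and cortex used duplicateCorrelation (statmod 1.5.0) over shared mice. The scripts were tested on simulated data.

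The members, lists, settings and motifs were chosen with earlier results of these data known. Given array by array are the members whose groups did not overlap in the hypothalamus at 8 weeks, 7 fixed genes there, called members elsewhere or else the 3 of lowest p, and Stard4; Hmgcs1, Idi1, Fdps, Fdft1, Sqle, Insig1, Abcg1, Npc2 and, in the hypothalamus, Stard4 were added or shown in full after their values were seen. Replicates are separate mice. No label pairs the mice, and the main fits used no pairs. Like-numbered arrays counted as possible pairs where all 3 correlations of their deviations exceeded 0.1. This held in the hypothalamus at 8 weeks (0.208, 0.267 and 0.305) but in no other comparison. Alternatives were other filters, probe sets and scalings, a trended variance, weighted arrays, an unmoderated equal-variance test of each gene by itself, an FDR of 5%, a replicate block and the omission of each array. The number of arrays limits the precision.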

Additional observations from a re-analysis of the deposited data

Results flagged for a closer look

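Srebf1 at 8 weeks moved in opposite directions in 2 tissues with no overlap between groups in either. In the cortex its levels were 8.28, 8.41 and 8.28 in cKO mice and 8.10, 8.12 and 8.22 in controls. On the arrays labelled hippocampus they were 9.14, 9.11 and 9.07 in cKO mice and 9.26, 9.16 and 9.25 in controls. Leaving out cKO replicate 1, the array with hippocampal markers, could not make these groups overlap, so it tests nothing here. The cortex difference exceeded the other by 0.29 on the log2 scale. This difference between tissues was not tested, the mice were not the same, and neither tissue's own difference was called.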

How the results depend on the processing

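In the cortex at 4 weeks the 2 calls became 0 with no filter on low values, with median-centred arrays or with quantile normalization. They also became 0 with only the 6 arrays compared and in an unmoderated test of each gene by itself. At an FDR of 5% and with a replicate block they were 0 too. With array weights they became 14, against 8500 of all 14555 genes. Without the 3 cortex arrays that stand apart (chosen after seeing the data) they were also 14, against 8158 of all genes. Leaving out each array gave 0 to 12 calls, 12 of them without control replicate 3, against 6327 of all genes. In the hypothalamus at 8 weeks the 0 calls became 18 with array weights, against 767 of all 14555 genes. With each array left out they were 0 to 17. The 17 came without cKO replicate 3, the cKO mouse with the highest levels of the synthesis enzymes, against 577 of all genes. The count of members lower at an unadjusted p under 0.05 there, 13, was 7 with only the 6 arrays compared, 0 in an unmoderated test of each gene by itself and 4 to 19 with each array left out, and that of synthesis enzymes, 10 (counted after seeing the data), was 6, 0 and 3 to 16. The members' median difference of -0.23 ranged from -0.33 to -0.16 with each array left out. The replicate block joined all like-numbered arrays of a tissue, those of 4 and 8 weeks together. No label pairs these mice, so the block does not stand for a known pairing. It left these counts at 0, 13 and 10 and changed no call but the 2 in the cortex.

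The change between times was called for 8 members in the cortex with array weights and for 0 to 1 with each array left out, 1 of them without the 4-week cKO replicate 3, and in the hypothalamus for 0 to 12. Hypothalamus against cortex gave 0 to 4 calls with each array left out, and against the arrays labelled hippocampus 0 to 16. For these tests between times and tissues, calls over all genes were not counted under the alternatives. Of 598 values of named genes under alternatives, 18 turned direction. Stard4 in the cortex at 4 weeks was -0.76 on the probe set of highest variance, -0.20 as the mean of its probe sets, -0.033 with centring and -0.030 with quantile normalization, and at 8 weeks 0.091 on the probe set of highest variance. In the hypothalamus at 4 weeks Scap was -0.029 on the probe set of highest variance and Lss 0.029 as the mean of probe sets; at 8 weeks Insig2 was 0.042 and 0.0023 under those choices, Cyp46a1 -0.0048 with centring and Scap 0.0040 with quantile normalization. With each array left out, Insig2 ranged from -0.076 to 0.0060, Cyp46a1 from -0.029 to 0.053 and Scap from -0.041 to 0.017. Npc2 on the arrays labelled hippocampus at 4 weeks was 0.10 on the probe set of highest variance. The cause of these turns was not tested beyond the choice named. Signal over background was not assessed, and 3 mice a group limit every count.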
